A study of Caenorhabditis elegans with 6 samples.

Results

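A set of 74 *C. elegans* genes known only by a sequence name had higher transcript levels after *unc-62* RNAi in every replicate pair. They were selected on that contrast, out of 7333 genes tested, of which 2484 had no letters-hyphen-number symbol in the RefSeq table of assembly WBcel235. A member had no such symbol, was represented by its transcript with the highest mean level, had 10 or more reads in all 3 libraries of at least 1 group, and had a log2 fold change of 0.7 or more in each of the 3 replicate pairs. The fold change is log2 of *unc-62* RNAi over control RNAi, computed on RPM, the reads at a transcript scaled to the library's uniquely mapped reads, with 0.05 RPM added to each value. Because the rule used this contrast, the members' fold changes are a description and were not tested.

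The study compared whole day 4 adults fed bacteria that express *unc-62* double-stranded RNA with adults fed bacteria that carry the empty vector, with 3 libraries in each group. Both groups were sterile TJ1060 hermaphrodites of genotype fem-15(b26);spe-9(hc88), raised at 25°C until adult day 1 and then kept on the RNAi bacteria for 3 days at 20°C. Per the study's methods, plates for RNAi in adults held the drug FUDR, ampicillin and IPTG. Each of the 3 batches held about 10000 worms and was divided between the treatments, and the 3'-end enriched poly-A libraries were read in single 36-base reads. The *unc-62* RNAi libraries shared one sequencing lane and the control libraries another, so lane and treatment cannot be told apart. In whole worms, a change in the number of cells of a type and a change in RNA per cell cannot be told apart either.

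UNC-62 is the worm relative of fly Homothorax and of the vertebrate Meis proteins, TALE homeodomain proteins that bind DNA together with Hox and Pbx-type partners. In the adult worm it is known for its role in the intestine, the tissue that makes yolk proteins. A gene without a symbol carries a name made of the genomic clone it was found on and a number, which need not follow the order of the genes. Such a name says where a gene is and nothing of what it does, so the members are described here by the kind of transcript, the gene model, the chromosome and the neighbouring genes. All 74 were found in the RefSeq table, where 67 are listed as protein-coding, 3 as small nuclear RNA (snRNA), 1 as small nucleolar RNA (snoRNA), 1 as transfer RNA (tRNA) and 2 as pseudogenes.

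The libraries held between 15188765 and 22868980 uniquely mapped reads, and no library pair within a group agreed to within counting noise, with chi-square values per degree of freedom from 36.8 to 201. Transcripts of *unc-62* itself gave 17, 39 and 25 reads in *unc-62* RNAi libraries and 27, 31 and 26 reads in control libraries, or 1.35 ± 0.356 RPM against 1.60 ± 0.338 RPM (SD, n = 3 each). These values overlap, so the targeted gene gives no check of the labels. Summed marker levels of intestine (10 genes measured) were 4642 to 6884 RPM after *unc-62* RNAi and 3829 to 4668 RPM in controls, and 1 of the 9 markers tested met the fold rule upward. Epidermal markers (8 measured) summed to 204 to 364 RPM after *unc-62* RNAi and 342 to 679 RPM in controls, with 4 of 5 tested at or past the same threshold downward. Sperm markers (6 measured) summed to 37.1 to 67.3 RPM after *unc-62* RNAi and 55.4 to 179 RPM in controls, with 1 of 3 tested past the threshold downward. Muscle markers summed to 597 to 772 RPM after *unc-62* RNAi and 555 to 1157 RPM in controls, with 1 of 10 tested past the threshold downward. Neuron markers summed to 39.6 to 59.9 RPM after *unc-62* RNAi and 32.9 to 61.4 RPM in controls. Oocyte and germ line markers summed to 627 to 937 RPM after *unc-62* RNAi and 600.1 to 689 RPM in controls. No neuron, oocyte or germ line marker met the rule in either direction. In each of the 6 lists the sums of the groups overlapped. No marker of any list was at 0 in all libraries, and the part of these differences in the members' levels was not tested.

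Of all tested genes, 157 met the same fold rule, which is 2.14% of 7333. They consist of the 74 members and 83 genes with a symbol. The rule was met by 2.98% of tested genes without a symbol and by 1.71% of those with one, and 66 genes without a symbol fell past the mirrored threshold in every pair. The median over the members of the mean log2 fold change was 1.40 (range 0.78 to 5.14), beside a median of 0.06 over all tested genes. Of the members, 18 had a mean of 2 or more, 47 had a mean from 1 to under 2, and 9 had a mean below 1. In 31 members every pair was at 1 or more, and in 8 members every pair was at 2 or more.

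Most members were low in abundance. Their median level was 3.02 RPM after *unc-62* RNAi and 0.990 RPM in controls, and the median of the mean over 6 libraries was 1.89 RPM, against 2.98 RPM for tested genes without a symbol, 3.52 RPM for all tested genes and 4.31 RPM for the raised genes with a symbol. The mean was below 3 RPM in 47 members (63.5%), in 50.1% of tested genes without a symbol and in 45.1% of all tested genes, and it was above 10 RPM in 14 members. The read filter was passed through both groups by 41 members and through the *unc-62* RNAi libraries alone by 33. Of all tested genes, 509 passed through the *unc-62* RNAi libraries alone, a route that favours genes with higher values there. Together the members held 2111, 1763 and 2136 RPM in the 3 *unc-62* RNAi libraries and 1030, 852 and 790.3 RPM in the 3 control libraries. The rule asks each member to be higher after *unc-62* RNAi in every pair, so the order of the sums was fixed in advance. The most abundant member, T21H3.1, gave a large share, and without it the sums were 1158, 894 and 1306 RPM after *unc-62* RNAi and 452, 375 and 315 RPM in controls.

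**Figure D1:**
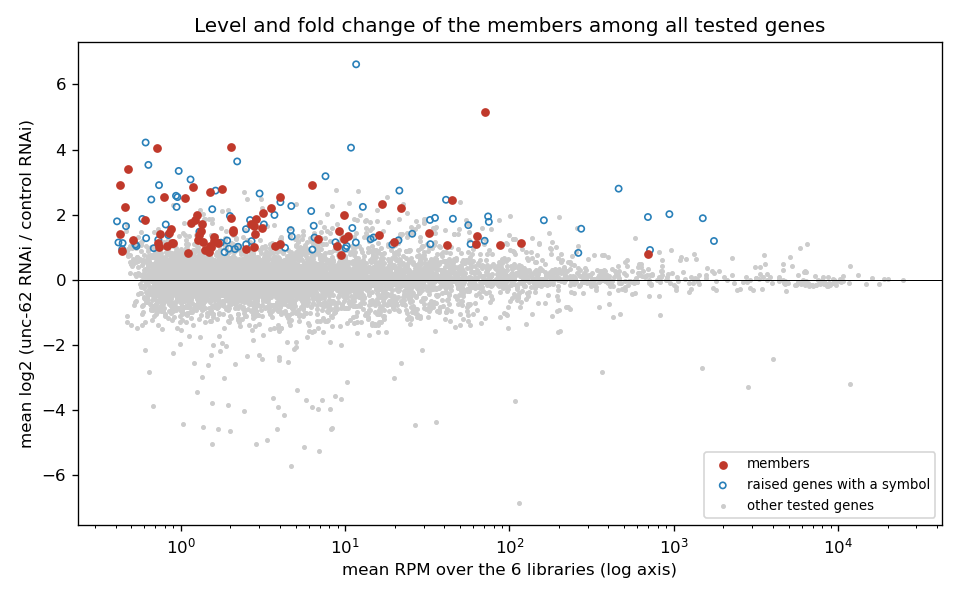
Mean level over the 6 libraries in RPM (horizontal, log axis) and mean log2 fold change of *unc-62* RNAi over control RNAi (vertical) for the 7333 tested genes, with the 74 members as filled points, the 83 raised genes with a symbol as open circles and the other genes in grey. Most members lie at the left, with 47 of 74 below 3 RPM, and Y39G8B.9 stands highest among them at 5.14.

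In 66 of the 74 members every *unc-62* RNAi library was above every control library, a state found in 6.44% of all tested genes and set in large part by the rule. In 37 members the lowest *unc-62* RNAi library was still 0.7 or more above the highest control library, so that the threshold was met without any pairing of replicates. The 8 members whose groups overlapped were Y37H2A.14, F33H12.7, R07E3.1, Y62E10A.13, Y45G5AM.5, C18A11.1, Y71F9B.9 and H34I24.2, named here because their groups overlap. H34I24.2 shows how this came about, with 12.03, 17.5 and 6.59 RPM in *unc-62* RNAi replicates 1, 2 and 3 against 5.07, 8.36 and 3.73 RPM in control replicates 1, 2 and 3. Its highest libraries carried the number 2 in both groups and its lowest the number 3, so only the values within a pair were apart.

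A model fitted across all 7333 genes, limma on TMM-scaled log2 RPM with the replicate number as a block, called 19 members higher after *unc-62* RNAi at a Benjamini-Hochberg adjusted p under 0.1, beside 42 of all tested genes, which is 0.573%. The members' adjusted p in limma lay between 0.0433 and 0.383. This count uses the contrast that chose the members and is given only for reference. Without replicate 1, 2 or 3, limma called 0, 2 or 68 members and 0, 4 or 460 of all tested genes higher, so the count of members moved with the count over all genes.

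The members with the largest fold changes included transcripts that were close to absent in control worms. Y39G8B.9, on chromosome II, had the highest mean log2 fold change of all members. It reached 92.5, 68.3 and 253 RPM in the *unc-62* RNAi libraries and 6.78, 4.15 and 1.21 RPM in the control libraries, which gives log2 fold changes of 3.76, 4.02 and 7.65. The lowest *unc-62* RNAi library was thus far above the highest control library. Y39G8B.9 was also the fourth most abundant member, so this difference rests on 7833 reads after *unc-62* RNAi and 200 reads in controls.

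C08E3.13 and C08E3.15 lie next to each other on chromosome II, on the same strand and without overlap of their spans, and their WBcel235 models encode 78 and 62 codons. C08E3.13 had 4.26, 3.15 and 4.00 RPM after *unc-62* RNAi and 0.132, 0.409 and 0.0932 RPM in controls, a mean log2 fold change of 4.06. C08E3.15 had 27, 23 and 29 reads after *unc-62* RNAi and 1, 1 and 0 reads in controls. For so few control reads the ratio of pooled RPM was 36.3, with a 95% interval from counting error alone of 9.72 to 305. Both genes passed the read filter through the *unc-62* RNAi libraries alone, so reads in each of those libraries were required. C08E3.13 and C08E3.15 had 11 and 2 reads in all control libraries together. No other gene of clone C08E3 was tested.

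Low control counts also marked F46B3.1 and ZK355.3. F46B3.1, on chromosome V, had 23, 13 and 15 reads after *unc-62* RNAi and 1, 1 and 0 reads in controls, a ratio of pooled RPM of 23.4 (95% counting interval 6.16 to 199). ZK355.3, on chromosome II, had 10, 14 and 22 reads after *unc-62* RNAi and 1 read in each control library, a ratio of 14.1 (4.53 to 70.8). The intervals are exact Clopper-Pearson intervals of the share of reads and cover counting error only. They do not allow for the choice of these genes on the same contrast and are a description. C08E3.15, F46B3.1 and ZK355.3 all passed the read filter through the *unc-62* RNAi libraries alone. In all, 3 members had 3 or fewer control reads and 24 had under 30.

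Y105C5A.9 and K10D11.2 (chromosome IV), F17B5.1 (chromosome I) and F15B9.6 (chromosome V) were also among the 12 largest fold changes, each with under 4 RPM on average in either group. Y105C5A.9 was at 0.993, 3.24 and 2.16 RPM after *unc-62* RNAi and at 0.132, 0.351 and 0.233 RPM in controls, and its pairs differed little, at 2.52, 3.04 and 2.97. F17B5.1 was at 1.87, 2.93 and 4.65 RPM after *unc-62* RNAi and at 0.395, 0.351 and 0.419 RPM in controls. The mean log2 fold change was 2.84 for Y105C5A.9, 2.78 for F17B5.1, 2.54 for F15B9.6 and 2.51 for K10D11.2. In all 4 of these genes the groups were apart, as in 66 of the 74 members and in 6.44% of all tested genes. Each *unc-62* RNAi value of F17B5.1 was above 4 times its highest control value. All 4 genes passed the read filter through the *unc-62* RNAi libraries alone.

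**Figure D2:**
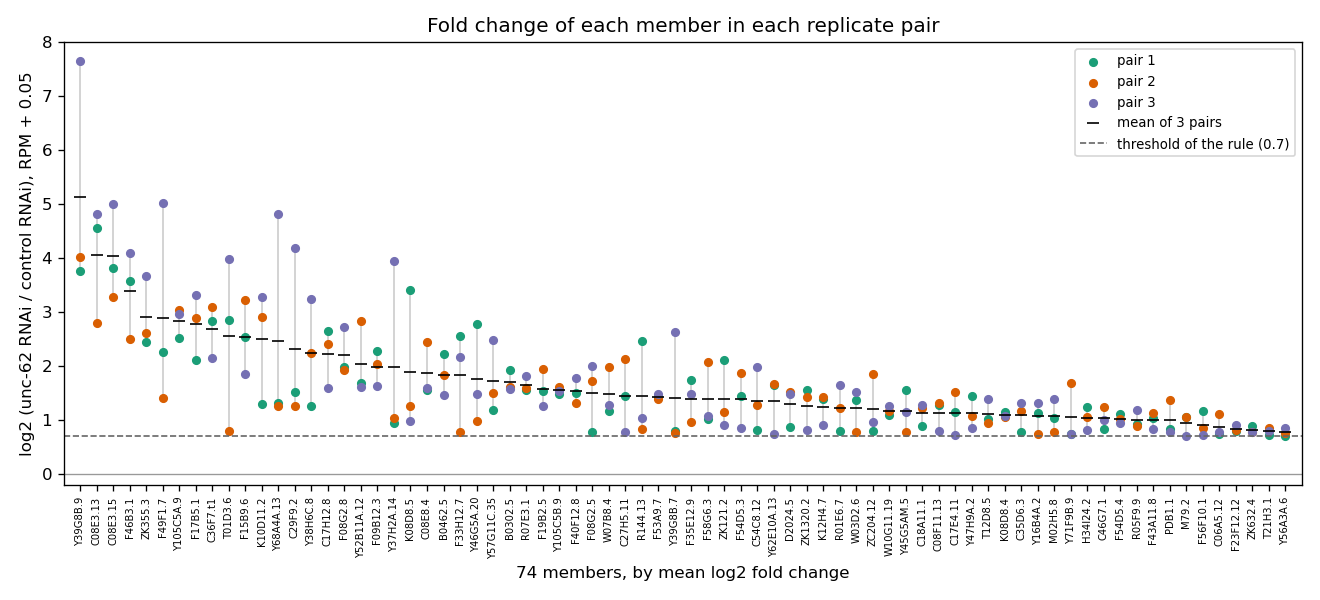
Log2 fold change of each of the 74 members (horizontal, ordered by the mean) in replicate pairs 1, 2 and 3 (coloured points), with the mean as a black bar and the rule's threshold of 0.7 as a dashed line. Pair 3 of Y39G8B.9 reaches 7.65, and the lowest point of all members, pair 1 of Y56A3A.6, lies at 0.71.

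Several of the 12 most abundant members showed small and even differences. Others did not, and Y39G8B.9, Y68A4A.13 and C29F9.2 had mean log2 fold changes of 5.14, 2.47 and 2.33. T21H3.1, on chromosome V, was the most abundant member, at 953, 869 and 829.7 RPM after *unc-62* RNAi and 578, 477 and 475 RPM in controls. Its log2 fold changes of 0.72, 0.87 and 0.80 put it among the 5 members nearest the threshold, although its groups did not overlap. T12D8.5, on chromosome III, had 195, 131 and 155 RPM after *unc-62* RNAi and 95.7, 67.8 and 59.0 RPM in controls, with a mean log2 fold change of 1.12. Its annotated exons overlap those of *taf-9* on the other strand. The counting used the sense strand, and *taf-9* had 2.39, 1.57 and 2.70 RPM after *unc-62* RNAi and 1.91, 1.81 and 3.35 RPM in controls, without the difference seen in T12D8.5.

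M02H5.8 (chromosome V) and K08D8.4 (chromosome IV) had mean log2 fold changes of 1.07 and 1.09. M02H5.8 had 129, 124 and 101 RPM after *unc-62* RNAi and 62.9, 72.3 and 38.3 RPM in controls. K08D8.4 had 111, 73.3 and 70.5 RPM after *unc-62* RNAi and 49.97, 35.0 and 33.5 RPM in controls, and its 3 pairs lay between 1.06 and 1.15. Replicate 1 of K08D8.4 was the highest in each group, so the fold change was even while the level in RPM was not. Replicate 1 was also highest in 36 members after *unc-62* RNAi and in 35 members in controls. The TMM factors were 1.18 and 1.15 for replicate 1 of *unc-62* RNAi and control, and 0.886 to 0.941 for the other libraries. The RPM values given here are not scaled by these factors.

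F53A9.7 and Y16B4A.2 on the X chromosome and W10G11.19 on chromosome II had close values within each group. F53A9.7 had 47.5, 50.6 and 43.2 RPM after *unc-62* RNAi and 17.6, 19.2 and 15.4 RPM in controls, or 47.1 ± 3.72 against 17.4 ± 1.91 RPM (SD, n = 3 each). Y16B4A.2, whose model of 2161 codons is the longest of the members, had 56.8, 55.1 and 57.0 RPM after *unc-62* RNAi and 25.8, 32.7 and 22.6 RPM in controls. W10G11.19 averaged 27.4 ± 3.54 RPM after *unc-62* RNAi and 12.2 ± 2.29 RPM in controls (SD, n = 3 each). In these 3 genes the distance between the groups exceeded the range within either group.

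C17H12.8, on chromosome IV, behaved differently within its groups. Its values were 73.3, 22.7 and 14.1 RPM after *unc-62* RNAi and 11.7, 4.21 and 4.61 RPM in controls. Replicate 1 was the highest library in each group, and the groups were separated by the narrow gap between 14.1 and 11.7 RPM. Within pairs 1, 2 and 3 the log2 fold changes were 2.65, 2.42 and 1.60.

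**Figure D3:**
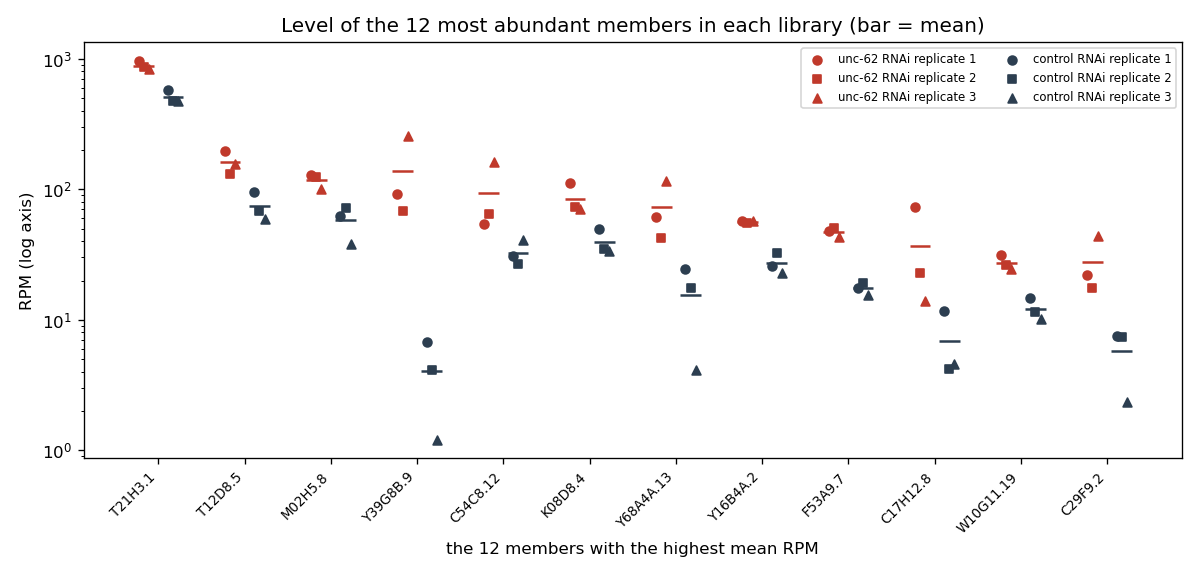
Level in RPM (vertical, log axis) of the 12 members with the highest mean level, in the 3 *unc-62* RNAi libraries (left of each pair of columns) and the 3 control RNAi libraries (right), with bars at the group means. In all 12 the *unc-62* RNAi libraries lie above the control libraries, and control replicate 3 lies well below the other control libraries for Y39G8B.9, Y68A4A.13 and C29F9.2.

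Pair 3 differed more than the others over the whole data set. The SD of the log2 fold change over all tested genes was 0.67 in pair 1, 0.70 in pair 2 and 1.22 in pair 3, and 10.6%, 10.7% and 20.6% of tested genes reached 0.7 in these pairs. Among the members, 19 were highest in pair 1, 23 in pair 2 and 32 in pair 3. Of all 157 genes raised in every pair, 34, 50 and 73 were highest in these pairs, a similar distribution. In 9 members pair 3 lay over 1 above both other pairs on the log2 scale, and in none did it lie over 1 below them. The rule's floor of 0.7 in every pair leaves less room for the second case. In all 9 the lowest control library was replicate 3, and in 8 the highest *unc-62* RNAi library was also replicate 3. Both counts follow in large part from the choice of these 9 by their high pair 3. The part of the batch or the library in this was not tested.

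The 5 members whose pairs differed most were Y39G8B.9, F49F1.7, Y68A4A.13, T01D3.6 and Y37H2A.14. Y68A4A.13, on chromosome V and with a model of 67 codons, had 61.4, 42.3 and 117 RPM after *unc-62* RNAi and 24.7, 17.5 and 4.10 RPM in controls, so its log2 fold change was 4.81 in pair 3 and 1.31 and 1.27 in pairs 1 and 2. F49F1.7 had 4.61, 3.06 and 27.3 RPM after *unc-62* RNAi and 0.922, 1.11 and 0.792 RPM in controls, with log2 fold changes of 2.26, 1.42 and 5.02. T01D3.6 had 6.54, 2.19 and 12.6 RPM after *unc-62* RNAi and 0.856, 1.23 and 0.745 RPM in controls. Without replicate 3 the mean log2 fold change was 3.89 in place of 5.14 for Y39G8B.9, 1.84 in place of 2.90 for F49F1.7, 1.29 in place of 2.47 for Y68A4A.13, 1.84 in place of 2.55 for T01D3.6 and 1.00 in place of 1.98 for Y37H2A.14. The size of these differences thus rested in good part on pair 3, while the median over all 74 members was 1.40 with and without it. At the other end, 21 members had all 3 pairs within 0.5 of each other.

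The member C29F9.2, on chromosome III, carried the same imbalance, with 21.9, 17.7 and 43.6 RPM after *unc-62* RNAi and 7.57, 7.37 and 2.33 RPM in controls, and its mean log2 fold change was 1.39 without replicate 3 and 2.33 with it. C54C8.12, on chromosome I, had 54.1, 65.1 and 161 RPM after *unc-62* RNAi and 30.6, 26.8 and 40.7 RPM in controls, so that here replicate 3 was the highest library in both groups. Its mean log2 fold change was 1.36.

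The 5 members listed as snRNA, snoRNA or tRNA had mean levels between 0.729 and 2.67 RPM. Small nuclear RNAs are parts of the spliceosome, small nucleolar RNAs guide the chemical modification of ribosomal and other RNAs, and transfer RNAs carry amino acids to the ribosome. None of these is normally polyadenylated, while the libraries were made from poly-A RNA, and what kind of molecule the reads came from was not tested. Reads that matched more than 1 place were left out upstream, so reads shared by near-identical copies are not in these values.

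The tRNA gene C36F7.t1 had the largest difference of the group. It gave 3.15, 1.88 and 2.86 RPM after *unc-62* RNAi and 0.395, 0.175 and 0.606 RPM in controls, from 54, 43 and 53 reads against 6, 3 and 13, and its mean log2 fold change was 2.70. The other tRNA gene tested, F10C1.t1, had 5.08, 7.22 and 5.67 RPM after *unc-62* RNAi and 6.78, 5.61 and 6.76 RPM in controls, which overlap. The difference at C36F7.t1, which passed the read filter through the *unc-62* RNAi libraries alone, was thus not seen at the other tRNA locus.

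Of the 7 snRNA genes tested, 5 met the fold rule, beside 2.14% of all tested genes. Among the 5 were the members Y57G11C.35, C27H5.11 and Y47H9A.2. The 2 that also met it, C15F1.9 and C15F1.10, carry a symbol in the RefSeq table and are not members. The median over the 7 of the mean log2 fold change was 1.15. C27H5.11, Y47H9A.2 and C15F1.10 passed the read filter through the *unc-62* RNAi libraries alone. That route favours higher values there, so it raises both the count and the median. Y57G11C.35 had 5.20, 3.24 and 3.62 RPM after *unc-62* RNAi and 2.24, 1.11 and 0.606 RPM in controls. C27H5.11 had 51, 51 and 67 reads after *unc-62* RNAi and 16, 8 and 45 reads in controls, and C15F1.10 had nearly the same profile, with 42, 42 and 65 reads against 16, 9 and 45. Y47H9A.2 had 20, 21 and 18 reads after *unc-62* RNAi and 6, 7 and 11 reads in controls. The remaining snRNA genes, H27M09.6 and F58G1.10, missed the threshold in 1 pair each, with log2 fold changes of 0.68, 1.82 and 0.83 for H27M09.6 and of 0.90, 0.51 and 1.25 for F58G1.10.

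The snoRNA gene F43A11.8 had 1.81, 2.36 and 1.95 RPM after *unc-62* RNAi and 0.856, 1.05 and 1.07 RPM in controls, and it was the only one of 4 tested snoRNA genes to meet the rule. Y57G11C.35 lies within the span of Y57G11C.5 on the same strand, and the pseudogene F40F12.8 lies within *cbp-3* on the same strand. Both host genes were below the read filter, at 0.117, 0.131 and 0.216 RPM for Y57G11C.5 after *unc-62* RNAi and 0.0658, 0.0585 and 0.233 RPM in controls. The pseudogene F40F12.8 itself had 2.51, 3.45 and 3.35 RPM after *unc-62* RNAi and 0.856, 1.34 and 0.932 RPM in controls. W03D2.6, the other pseudogene among the members, had 13, 10 and 19 reads after *unc-62* RNAi and 4, 4 and 7 reads in controls.

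**Figure D4:**
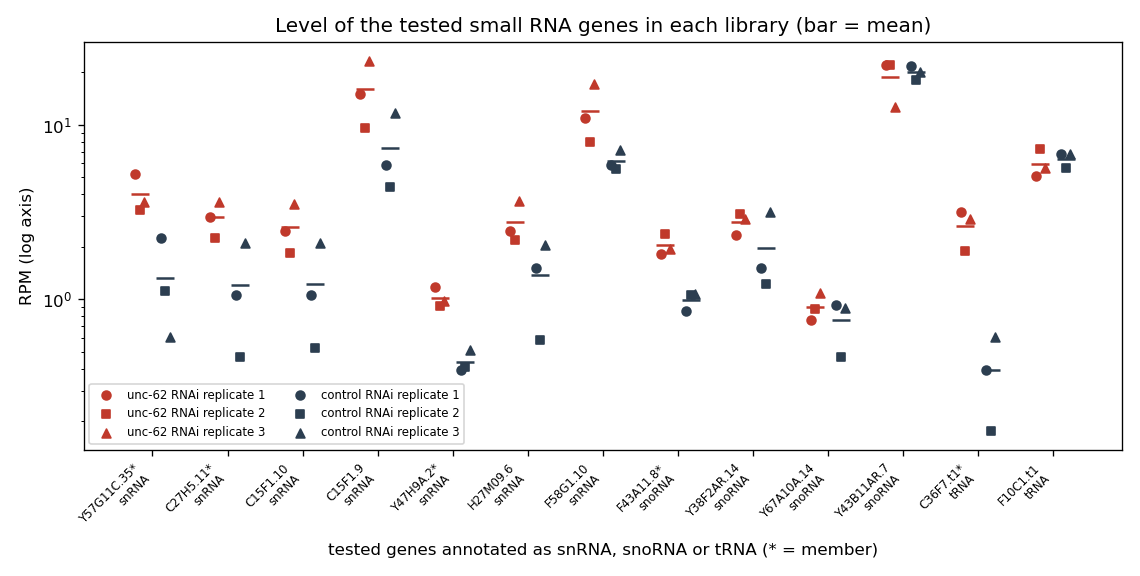
Level in RPM (vertical, log axis) of the 13 tested genes listed as snRNA, snoRNA or tRNA, in the 3 *unc-62* RNAi libraries (left) and the 3 control RNAi libraries (right), with bars at the group means and members marked by a star. The group mean after *unc-62* RNAi lies above the control mean in all 7 snRNA genes, while the most abundant snoRNA gene and F10C1.t1 do not show this.

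The protein-coding members had shorter models than other genes in the Ensembl annotation of WBcel235. Their median coding length was 209 codons, against 287 codons for tested protein-coding genes without a symbol and 367 for all tested ones. A model of fewer than 150 codons was found in 18 of the 67 (26.9%), against 19.7% of those without a symbol and 13.6% of all. The median number of exons was 4 in members and 5 in both other sets, and 73.1% of members had 1 annotated transcript, against 63.3% and 59.7%. A 3' untranslated region was annotated for 62 of the 67 (92.5%), against 96.3% of those without a symbol and 97.3% of all. These properties were not used by the rule and are given as a description.

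In the deposited tables, 19 members had more than 1 transcript, with 30 transcripts besides those used. All 30 were higher after *unc-62* RNAi in the mean of the pairs, and 21 met the threshold in each pair. These are not independent values, since a read is listed for every transcript that holds it. F17B5.1 is an example, its transcripts a and b both listed with 32, 67 and 86 reads after *unc-62* RNAi and 6, 6 and 9 reads in controls.

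The members lay on all 6 chromosomes, with 8 on I, 16 on II, 10 on III, 15 on IV, 15 on V and 10 on X. Chromosome I held 10.8% of members and 18.1% of tested genes without a symbol, and chromosome X held 13.5% against 9.06%. On the other chromosomes the shares differed by less than 4 percentage points.

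Some members had a raised neighbour. Of the 44 members with a tested gene directly beside them in the order of measured genes, 10 (22.7%) had a neighbour that met the fold rule, against 2.44% of all tested genes without a symbol and 2.11% of all tested genes. For 6 of these 10 the raised neighbour was itself a member, so adjacent members were counted from both sides. A neighbour that fell past the mirrored threshold was found for 1 member (2.27%), against 3.26% of tested genes without a symbol and 3.15% of all. The median log2 fold change over 57 tested neighbours was 0.25, beside 0.06 over the neighbours of all tested genes. No test was made of these shares, and neighbours were called by the same contrast as the members. The raised neighbours C08E3.13, C08E3.15, K08D8.5 and *irg-5* passed the read filter through the *unc-62* RNAi libraries alone. That route favours genes with higher values there, so it raises the share. No member shared exons with another measured gene on the same strand.

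Allowing up to 2 measured genes in between, 13 members and 7 genes with a symbol formed 9 runs of raised genes. Some of these genes also passed the read filter through the *unc-62* RNAi libraries alone. In 4 runs the raised genes were members only. Besides C08E3.13 with C08E3.15, these were Y39G8B.9 with Y39G8B.7, F54D5.4 with F54D5.3, and K08D8.4 with K08D8.5. Y39G8B.7 had 3.15, 2.62 and 6.92 RPM after *unc-62* RNAi and 1.78, 1.52 and 1.07 RPM in controls, and like Y39G8B.9 it was highest in *unc-62* RNAi replicate 3 and lowest in control replicate 3. F54D5.3 averaged 22.99 ± 6.35 RPM after *unc-62* RNAi and 9.07 ± 3.50 RPM in controls, and F54D5.4 averaged 5.02 ± 1.25 RPM after *unc-62* RNAi and 2.41 ± 0.451 RPM in controls (SD, n = 3 each). Clone F54D5 held 9 further tested genes, none of them raised, so its other genes did not share the difference.

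K08D8.5 did not follow its neighbour K08D8.4 across the libraries. It had 6.83, 2.32 and 0.973 RPM after *unc-62* RNAi and 0.593, 0.936 and 0.466 RPM in controls, with log2 fold changes of 3.42, 1.26 and 0.99, while those of K08D8.4 lay between 1.06 and 1.15. *irg-6*, on the other side of K08D8.5, was under the read filter.

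In the other 5 runs a member stood beside genes with a symbol. F35E12.9 lay between *irg-5*, a gene named for its response to infection, and *cld-9*. *irg-5* had 7.53, 3.63 and 1.35 RPM after *unc-62* RNAi and 0.263, 0.292 and 0.140 RPM in controls, a mean log2 fold change of 3.64. F35E12.9 had 1.23, 0.962 and 1.13 RPM after *unc-62* RNAi and 0.329, 0.468 and 0.373 RPM in controls, with a mean of 1.40, and *cld-9* had a mean of 1.38. The member was thus the middle of 3 raised genes, and its libraries were more even than those of *irg-5*.

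F49F1.7 followed *drd-50* and *mul-1* on chromosome IV, whose mean log2 fold changes were 1.57 and 1.09. Neither of these showed the high replicate 3 of F49F1.7, since *drd-50* had 551, 424 and 256 RPM after *unc-62* RNAi and 179.7, 135 and 94.1 RPM in controls. C54C8.12 lay beside *nlp-39*, a neuropeptide-like protein gene, which had 63.7, 60.2 and 117 RPM after *unc-62* RNAi and 34.6, 35.7 and 36.9 RPM in controls. Both genes of that pair were highest in *unc-62* RNAi replicate 3. W07B8.4 lay beside *cpr-5*, which encodes a cathepsin B-like cysteine protease. W07B8.4 averaged 2.001 ± 0.662 RPM after *unc-62* RNAi and 0.660 ± 0.0779 RPM in controls (SD, n = 3 each), while *cpr-5* averaged 336 RPM after *unc-62* RNAi and 189 RPM in controls, so genes of very different abundance were raised side by side. C29F9.2 lay near *pals-23*, at 0.759, 0.568 and 0.540 RPM after *unc-62* RNAi and 0.329, 0.175 and 0.280 RPM in controls.

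**Figure D5:**
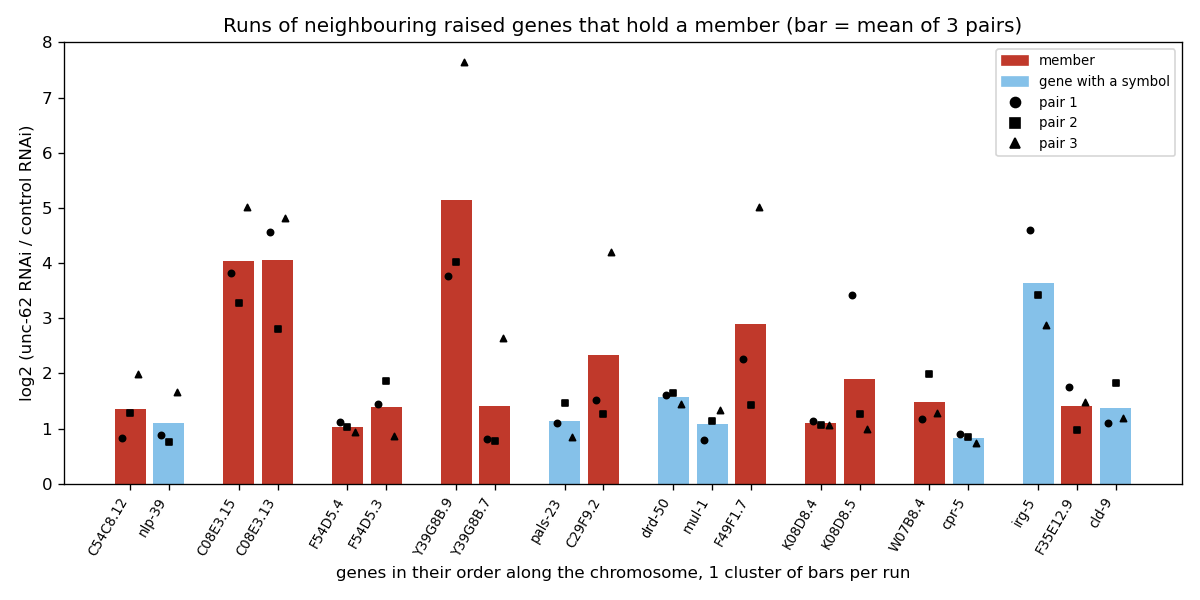
Mean log2 fold change of *unc-62* RNAi over control RNAi (bars) with the 3 replicate pairs (points) for the 20 genes of the 9 runs of neighbouring raised genes that hold a member, in their order along the chromosome. Members are red and genes with a symbol are blue. Y39G8B.9 stands highest at 5.14 and *cpr-5* lowest at 0.83.

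F08G2.8 and F08G2.5 on chromosome II shared a clone with each other but formed no run. F08G2.8 had 6.13, 5.29 and 6.16 RPM after *unc-62* RNAi and 1.51, 1.34 and 0.885 RPM in controls, a mean log2 fold change of 2.22. F08G2.5 had 11.1, 16.7 and 12.5 RPM after *unc-62* RNAi and 6.45, 4.97 and 3.07 RPM in controls, with a mean of 1.51. They made up 2 of the 4 tested genes of that clone. F08G2.8 and F08G2.5 are named for this reason and were chosen after their values were seen.

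The exons of 5 members overlapped those of a gene on the other strand. For C17E4.11, the overlapping gene *mjl-1* had 2.10, 1.66 and 1.19 RPM after *unc-62* RNAi and 0.658, 0.526 and 1.07 RPM in controls. For K12H4.7, *mals-1* had 7.94, 7.78 and 19.2 RPM after *unc-62* RNAi and 8.89, 5.96 and 4.99 RPM in controls, which differ clearly in pair 3 alone. The partners of Y46G5A.20 and C46G7.1 were under the read filter.

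The threshold cut through a continuous range. The members nearest to it were Y56A3A.6, M79.2, T21H3.1, C17E4.11 and F56F10.1, with lowest pairs between 0.71 and 0.73. The genes without a symbol that came nearest from below were C33H5.13, M28.10, H27M09.6, F55H12.4 and Y24D9B.1, with lowest pairs of 0.70, 0.69, 0.68, 0.66 and 0.65. C33H5.13 had 112.4, 112.1 and 171 RPM after *unc-62* RNAi and 69.3, 60.8 and 51.9 RPM in controls, and it would have ranked among the more abundant members. In all, 149 genes without a symbol that are not members reached 0.7 in 2 of the 3 pairs.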

How the data were processed

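The data are 3'-end enriched poly-A RNA sequencing of 3 *unc-62* RNAi and 3 control RNAi libraries of whole worms, grouped by their labels. The authors removed reads with long runs of A or T, aligned the rest with Bowtie 0.12.7 to the WS215 genome and transcriptome after base calling with CASAVA 1.7.0, and counted uniquely mapping reads on the sense strand of each transcript. The deposited values are a signal per transcript that the file headers call RPM. A read is listed for every transcript that holds it, so a library's values do not sum to a fixed total, and they were treated as a normalized signal with no count test as the first choice. Values were whole multiples of the worth of 1 read in 100% of cases (tolerance 0.01 read), which gave back reads and library totals of 15188765 to 22868980. WS215 coordinates were not mixed with WBcel235, so no coordinates are given. The deposited tables hold 25531 transcripts of 17682 genes, of which 17295 matched the RefSeq table by name. A tested ID not in that table counted as having no symbol.

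For each gene the transcript with the highest mean RPM was kept, and 7333 genes had 10 or more reads in every library of a group. Fold changes used 0.05 RPM added. limma 3.58.1 (R 4.3.3) with TMM scaling from edgeR 4.0.16, a trended variance and the replicate block was fitted to all 7333 genes, with Benjamini-Hochberg adjustment and a call at an adjusted p under 0.1. edgeR's quasi-likelihood test and DESeq2 1.42.0 on the recovered reads were alternatives. Tables were made with pandas 2.3.3, numpy 2.4.6 and scipy 1.17.1. The replicate numbers were taken as pairs because each batch of worms was divided between the treatments, per the study's methods. Deviations from the group means correlated over genes at 0.42, 0.20 and -0.18 for libraries with the same number. For those with different numbers the correlations were -0.50 to 0.26. Replicate 2 of *unc-62* RNAi correlated more with control replicate 3 (0.26) than with control replicate 2 (0.20). The pairing thus rests on the methods, and the values did not bear it out in replicate 3 or single it out in replicate 2. Intervals of pooled ratios are at 95%, cover counting error only and do not allow for the choice of members on the same contrast.

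The members and the gene lists were chosen with earlier results of these data known. Members named are the 12 with the largest mean fold change, the 12 with the highest mean RPM, those beside another member, the 5 nearest the threshold on each side and the 5 whose pairs differ most. The other members and neighbours were named after their values were seen. Planned groupings of members by protein family, role and promoter motif were not made, since protein, product and promoter tables were not used here.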

Additional observations from a re-analysis of the deposited data

How the results depend on the processing

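The number of members depended on the settings of the rule. With 0.5 RPM added it was 43, at a threshold of 1.0 it was 31, with a filter of 30 reads 47 and with no filter on reads 173, which included all 74. It was 64 after TMM scaling, 71 with pairs centred on the median of all tested genes and 73 with transcripts summed. With no replicate block, asking every *unc-62* RNAi library to lie 0.7 or more above every control library, it was 37. With 1 replicate left out, 127 to 159 genes met the rule in the remaining pairs, a rule that is easier to meet in 2 pairs. The median log2 fold change of the 74 members was 1.13 with 0.5 RPM added, an addition that shrinks the fold changes of low genes, and lay between 1.36 and 1.44 otherwise. With 0.5 RPM added, 14 of 38 named members moved by more than the SD of their pairs. A mean over pairs cannot move that far when 1 pair is dropped, and without replicate 1 the mean log2 fold change of K08D8.5 was 1.13 in place of 1.89, and without replicate 3 that of Y39G8B.7 was 0.79 in place of 1.40. Beside 19 members and 42 of all tested genes called higher, limma called 23 members and 60 genes with no replicate block, edgeR 21 and 45, DESeq2 43 and 102, and limma with a filter of 1 read in any library 35 and 97. With 1 replicate left out, limma called 0 to 68 members and 0 to 460 genes. Without replicate 1, where none were called, 187 genes were higher at an unadjusted p under 0.05, 60 of them members, which were chosen on this contrast. The causes were not tested. Read counts limit the low members, 24 of which had under 30 control reads.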
